A study of Mus musculus with 12 samples.

Results

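Nnt encodes nicotinamide nucleotide transhydrogenase, a protein of the inner mitochondrial membrane. It was followed here across ascending aortas of mice with and without smooth muscle Tgfbr2 deletion and with and without an Fbn1 mutation. It is 1 of 19938 genes measured on these arrays, and it was read from probe set 10412394 (Entrez 18115), the only probe set that the platform annotation gives to Nnt alone. The gene was chosen by its measured level on each of these same 12 arrays and because its locus is known to vary between C57BL/6 substrains. Its own levels and spread are therefore given as a description, without a test.

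The arrays fall into 4 groups of 3. The mutant knockout was Fbn1C1039G/+.Myh11-CreERT2.Tgfbr2f/f treated with tamoxifen, and the mutant control was the same genotype given corn oil. The wild-type knockout was Myh11-CreERT2.Tgfbr2f/f with wild-type Fbn1 treated with tamoxifen, and the wild-type control was that genotype given corn oil. Injections of 1 mg tamoxifen, or of vehicle, were intraperitoneal on 5 days starting at 4 weeks of age, and aortas were taken at 6 weeks. All 4 groups thus carry the Cre transgene, which acts in smooth muscle cells, and the floxed Tgfbr2 alleles, so that knockout against control is also tamoxifen against vehicle. Fbn1C1039G/+ changes fibrillin-1, the matrix protein affected in Marfan syndrome, in heterozygous form. The strain background of the mice is not given in the sources used here, nor do the labels state if each array stands for a separate animal.

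The transhydrogenase uses the proton gradient across the inner mitochondrial membrane to make NADPH from NADH and NADP+. Mitochondrial NADPH keeps glutathione and thioredoxin reduced, and these remove hydrogen peroxide. C57BL/6J mice carry a deletion of several consecutive Nnt exons and lack the functional protein, whereas C57BL/6N mice and other common laboratory strains carry an intact gene. Which allele each of these mice carried, and where the probes lie relative to the deleted exons, was not analysed here. The annotation ties the probe set to 2 RefSeq transcripts of Nnt, of which 1 is listed in the GRCm38.p6 (C57BL/6J) gene table.

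The arrays were similar in overall signal. Median intensity per array lay between 301 and 334, and Pearson correlations over the 14944 genes tested were 0.993 to 0.996 within groups and 0.981 to 0.993 across groups. All 6 smooth muscle markers were measured, with a mean level of 13.65 to 13.76 on the log2 scale per array. The wild-type knockouts were lowest on this measure, at 13.65 to 13.68, beside 13.71 to 13.76 on the arrays of the other groups. In wild-type knockouts 2 of the 6 were below wild-type controls (limma adjusted p below 0.05), where 9.66% of all genes fell. In the other comparisons of groups 0 passed. Tgfbr2, the deleted gene, averaged 12.03 ± 0.05 in mutant knockouts and 11.99 ± 0.04 in mutant controls (log2, SD, n = 3 each). It averaged 11.87 ± 0.08 in wild-type knockouts and 11.95 ± 0.01 in wild-type controls. Knockout differed from control by 0.04 in the mutant (limma adjusted p = 0.594) and by -0.08 in the wild-type (adjusted p = 0.324), so this probe set showed no loss, and whether its probes lie in the deleted part was not analysed here.

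Nnt was well expressed, at a mean log2 level of 10.77 that stood at percentile 76.0 of the genes tested, but its level differed markedly between arrays of the same group. In mutant knockouts the Nnt intensity was 2549, 1433 and 1361, which are log2 levels of 11.32, 10.48 and 10.41. In mutant controls it was 1361, 1261 and 1265, or 10.41, 10.30 and 10.30 on the log2 scale. In wild-type knockouts it was 2188, 1288 and 1326, with log2 levels of 11.10, 10.33 and 10.37. In each knockout group, then, array 1 was high and the other arrays were near the level of the mutant controls. The wild-type controls had 2511, 3371 and 2375, or 11.29, 11.72 and 11.21 on the log2 scale, and all 3 were high.

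**Figure D1:**
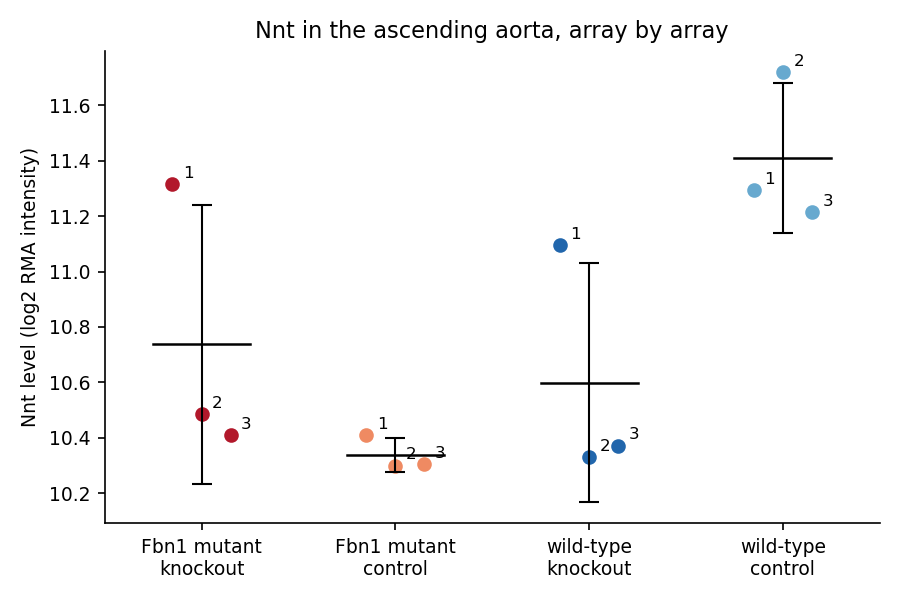
Nnt level on each of the 12 arrays (vertical axis, log2 of RMA intensity) in the 4 groups, with the replicate number beside each point, the group mean as a horizontal line and the SD as a bar. Array 1 of each knockout group (11.32 and 11.10) lies apart from the other arrays of its group, the 3 mutant controls lie together and the 3 wild-type controls are all above 11.2.

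The 12 Nnt values fell into a high and a low range with nothing between them. The gap ran between 1433 in mutant knockout array 2 and 2188 in wild-type knockout array 1, a step of 0.61 on the log2 scale or 1.53-fold. There were 5 arrays above it and 7 below it. The 7 low arrays spanned 0.18 on the log2 scale and the 5 high arrays 0.62. The gap passed through both knockout groups, with 1 high array in each, and through neither control group.

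Group means of Nnt were 10.74 ± 0.50 in mutant knockouts, 10.34 ± 0.06 in mutant controls, 10.60 ± 0.43 in wild-type knockouts and 11.41 ± 0.27 in wild-type controls (log2, SD, n = 3 each). In order of level the wild-type control stood highest, then the mutant knockout, the wild-type knockout and the mutant control. The mutant knockout and wild-type knockout, which are neighbours in that order, overlapped array by array, as did the wild-type control and the mutant knockout. The wild-type knockout and the mutant control overlapped too.

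As a description of these values, the Nnt level in mutant knockouts was 0.40 ± 0.24 above that in mutant controls (log2 difference ± SE from the limma fit over all genes). The groups nearly touched, at 10.41 in each, but did not overlap, which was also the case for 35.9% of all genes tested. In wild-type knockouts Nnt was lower than in wild-type controls, with a log2 difference of -0.81 ± 0.24, a 1.75-fold difference without overlap, where 35.8% of all genes did not overlap. In mutant controls Nnt was lower than in wild-type controls by a log2 difference of -1.07 ± 0.24, or 2.10-fold, again without overlap (28.1% of all genes). In mutant knockouts it differed from wild-type knockouts by 0.14 ± 0.24 and the groups overlapped, where 26.3% of all genes did not. The knockout difference of Nnt was thus positive in the mutant and negative in the wild-type, and the difference between them was 1.21 ± 0.34.

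These group differences rested on few arrays. Without mutant knockout array 1, the knockout difference of Nnt in the mutant was 0.11, and the log2 difference of mutant from wild-type knockouts was -0.15, which turns its sign. Leaving out each array in turn, the knockout difference in the wild-type ran between -1.06 and -0.65 and the difference between controls between -1.17 and -0.92. In bulk tissue, fewer cells of a type and less RNA per cell cannot be told apart.

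By SD, the spread of Nnt within groups was wider than that of most genes of its level. Its pooled SD about the 4 group means was 0.359 on the log2 scale, 4.61 times the median of 0.0778 among the 500 tested genes nearest in mean level (10.69 to 10.85). The 90th percentile of those genes was an SD of 0.127. Nnt stood at percentile 99.4 among them and ranked 91 of 14944 over all genes tested. By the median absolute deviation from group medians, which gives little weight to 1 array of 3, its spread was 0.0580, at percentile 89.4. That measure is on another scale than the SD, so only the percentiles compare. The within-group spread is part of what the gene was chosen for and is given without a test.

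Only 3 of the 500 genes of similar level varied more within groups than Nnt. They were Tnfrsf21, a receptor of the tumour necrosis factor family, Actc1, the cardiac alpha-actin, and Fkbp5, a glucocorticoid-induced co-chaperone. Tnfrsf21 had log2 levels of 10.08, 10.02 and 10.85 in mutant knockouts, 10.22, 10.22 and 10.90 in mutant controls, 11.32, 11.16 and 10.82 in wild-type knockouts and 11.73, 11.36 and 10.44 in wild-type controls. Its widest deviation was on array 3 of every group, where Nnt deviated most on array 1 of each knockout group.

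The spread of Nnt was not the same in the 4 groups. In mutant knockouts its SD of 0.503 stood at percentile 99.6 among the genes of similar level, whose median SD there was 0.0695. In mutant controls its SD of 0.0622 was at percentile 49.6, beside a median of 0.0627. In wild-type knockouts its SD of 0.430 was at percentile 100, beside a median of 0.0667, and in wild-type controls 0.272 was at percentile 98, beside 0.0732. Nnt therefore varied like other genes of its level in the mutant controls and more than nearly all of them in the other 3 groups.

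A gap as wide as that of Nnt was also uncommon. Counting the widest step between ordered arrays that leaves at least 3 arrays on each side, 38 of the 14944 genes tested and 2 of the 500 genes of similar level had a wider one than 0.61, and the median of the 500 was 0.0649. Of the 38 genes, 30 had a gap that divided no group, so that it separated whole groups from each other. Such was Hsph1, a heat shock protein, at 10.12 ± 0.22 in mutant knockouts, 10.31 ± 0.19 in mutant controls, 11.24 ± 0.05 in wild-type knockouts and 11.50 ± 0.07 in wild-type controls (log2, SD, n = 3 each). The other of the 2, the complement gene C4b, was at 10.52 ± 0.12, 10.19 ± 0.20, 11.56 ± 0.05 and 10.50 ± 0.09 in the same groups.

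A gap that, like that of Nnt, divided 2 groups was seen in 3 of the 38 genes, and in 3 more it divided over 2. These genes, named after their values were seen, were Angptl7, Nr4a1 and Cyp2b10 in the first set, and Car3, Chad and Clec3a in the second. None of them was among the 500 genes of similar level.

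**Figure D2:**
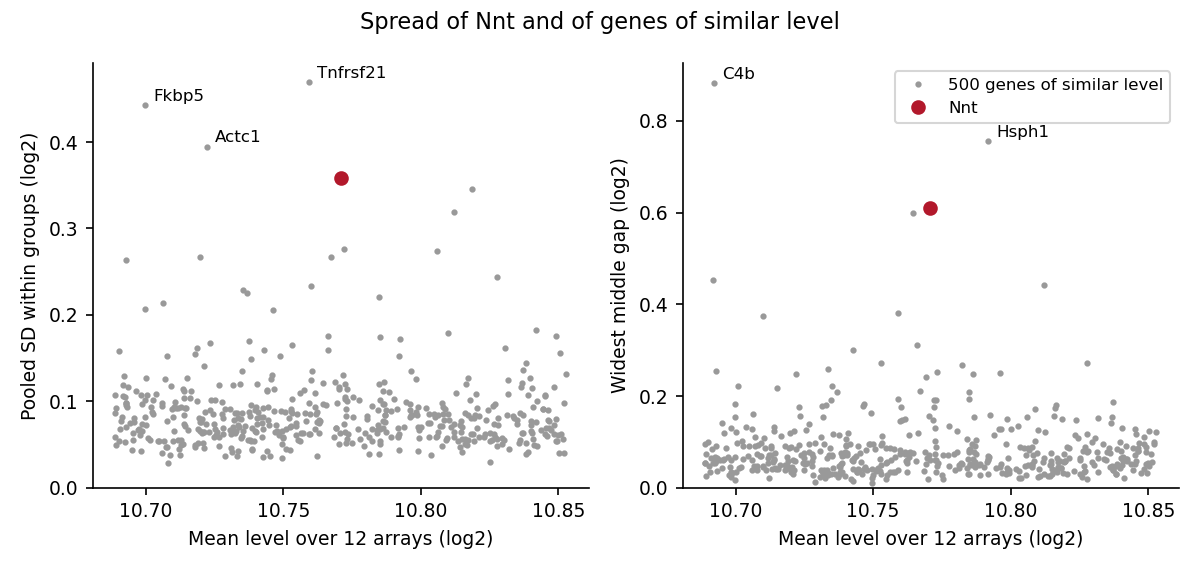
Left, pooled within-group SD (log2) against mean level over 12 arrays (log2) for Nnt and the 500 tested genes of similar level; right, the widest gap between ordered arrays with at least 3 arrays on each side (log2) against the same levels. Nnt (large point) has an SD of 0.359 with 3 genes above it and a gap of 0.61 with 2 genes above it.

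The genes whose deviations from group means followed those of Nnt most closely were Hey1, Zfp975, Cbfb, Chmp4b, Zar1, Gucy2d, Pax1, Hes1, Slc15a2 and Erf, the 10 highest Pearson correlations among named tested genes over 12 arrays. Correlations of this group ran between 0.89 for Hey1 and 0.83 for Erf, with Spearman values of 0.80 and 0.70 for these genes. The arrays share a platform and a normalization, the genes are the extreme of 14944, and the correlations are a description. Deviations of Nnt are dominated by array 1 of each knockout group. Without these 2 arrays the correlation was 0.58 for Hey1, 0.22 for Gucy2d and 0.17 for Pax1, against 0.86 for Cbfb and 0.84 for Zar1, and none of the 10 remained among the 10 highest.

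Most of these genes varied far less than Nnt. Chmp4b, a subunit of the ESCRT-III membrane scission machinery, had a within-group SD of 0.0282 and Cbfb, the partner subunit of Runx transcription factors, of 0.0556. Hey1, a transcriptional repressor, had log2 levels of 10.85, 10.28 and 10.52 in mutant knockouts, 10.26, 10.30 and 10.18 in mutant controls, 10.59, 10.31 and 10.27 in wild-type knockouts and 9.99, 10.14 and 9.84 in wild-type controls. Array 1 was its highest in each knockout group, as for Nnt, but the wild-type controls were its lowest group. Slc15a2, a peptide transporter, was the only gene of the 10 with a wider spread than Nnt, an SD of 0.501 or 1.40 times that of Nnt. Its log2 levels were 8.22, 6.75 and 7.10 in mutant knockouts, 7.64, 7.84 and 8.36 in mutant controls, 7.70, 7.17 and 6.91 in wild-type knockouts and 8.19, 8.84 and 8.31 in wild-type controls. Arrays 2 and 3 of each knockout group thus lay below 7.31, the level that a gene's mean had to reach to be tested.

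The 5 genes whose deviations ran most opposite to Nnt were Mknk1 at -0.95, Irak3, Cyb561d1, Lsm6 and Slfn3, each of the last 4 at -0.92. Without array 1 of each knockout group their correlations lay between -0.77 and -0.63. Mknk1, a kinase of the translation factor eIF4E, had a within-group SD of only 0.0530. No gene of the 10 most alike lies on chromosome 13, where the gene table places Nnt. Emb, on that chromosome but 18 annotated genes away from Nnt, had rank 18 by the same measure, with a correlation of 0.81. Ranked by levels in place of deviations, the closest gene was Igsf8 at 0.81, and 1 gene, Zar1, was shared with the 10 named above.

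None of the 10 nearest tested genes to Nnt on its chromosome spread as widely within groups. The nearest 5 tested genes on each side of Nnt in the order of the GRCm38.p6 gene table are Isl1, Parp8, Emb, Mrps30 and Fgf10 before it, and Paip1, 4833420G17Rik, 3110070M22Rik, Tmem267 and Hmgcs1 after it. Counted in annotated genes, those before lie 2 (Fgf10) to 25 (Isl1) from Nnt, with Emb at 18. Those after lie 1 (Paip1) to 7 (Hmgcs1) from it. The within-group SDs of the 10 lay between 0.0750 and 0.145, against 0.359 for Nnt. Their widest middle gaps lay between 0.0198 and 0.310, against 0.61 for Nnt. Fgf10, a fibroblast growth factor and the tested gene just before Nnt, averaged 7.68 ± 0.05 in mutant knockouts, 7.60 ± 0.09 in mutant controls, 7.69 ± 0.08 in wild-type knockouts and 7.68 ± 0.14 in wild-type controls. Paip1, a poly(A)-binding protein partner just after Nnt, averaged 10.58 ± 0.09, 10.78 ± 0.05, 10.78 ± 0.08 and 10.53 ± 0.15 in the same groups (log2, SD, n = 3 each).

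**Figure D3:**
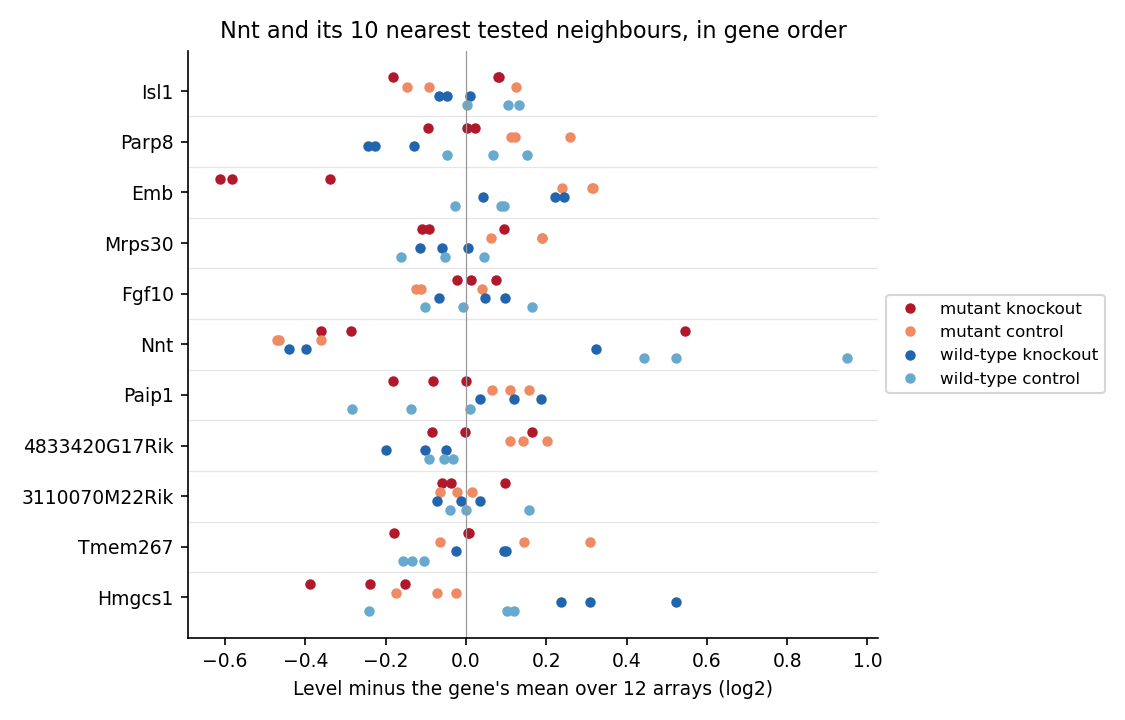
Level of Nnt and of its 10 nearest tested neighbours in gene order (rows), each as the difference from the gene's mean over 12 arrays (horizontal axis, log2), with 1 point per array coloured by group. Nnt spreads from below -0.4 to above 0.9, Emb separates the mutant knockouts from the other groups, and the other neighbours lie closer to 0.

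In the limma test with Benjamini-Hochberg adjustment over all 14944 genes at 0.05, 0 of the 10 neighbours rose and 1 fell in mutant knockouts against mutant controls, where 7.66% of all genes rose and 5.77% fell. In wild-type knockouts against wild-type controls 2 rose and 1 fell, where 9.17% of all genes rose and 9.66% fell. Between mutant and wild-type controls, the comparison with the widest Nnt difference, none of the 10 passed the test, where 3.17% of all genes were higher and 3.33% lower. Without passing, Emb, Mrps30, Paip1, 4833420G17Rik and Tmem267 were higher in mutant controls by 0.20 to 0.26, where Nnt was lower. These did not overlap between the controls, as was the case for 28.1% of all genes, and the other neighbours overlapped. Between mutant and wild-type knockouts 2 were lower, where 2.8% of all genes were higher and 3.16% lower.

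The neighbour with the largest change was Emb, which encodes embigin, a membrane glycoprotein that accompanies monocarboxylate transporters. Its log2 levels were 11.44, 11.17 and 11.20 in mutant knockouts and 12.10, 12.10 and 12.02 in mutant controls. In wild-type knockouts its intensity was 4173, 3626 and 4109, at log2 levels between 11.82 and 12.03, and the log2 levels were 11.87, 11.88 and 11.75 in wild-type controls. Emb fell by 0.80 ± 0.08 in mutant knockouts against mutant controls (limma adjusted p = 5.88e-05) and was lower by a log2 difference of -0.68 ± 0.08 than in wild-type knockouts (adjusted p = 0.000392). Its knockout effect differed between Fbn1 genotypes by -0.92 ± 0.11 (adjusted p = 0.00216), a test that 1.48% of all genes passed, with 1.08% of all genes below 0. Within each of the 4 groups the highest array for Emb was also the highest for Nnt, by small margins outside the mutant knockouts. The deviations of both genes from group means had a Pearson correlation of 0.81 over 12 arrays (Spearman 0.76), and of 0.44 without array 1 of each knockout group. Across groups Emb was not lower in mutant than in wild-type controls, as Nnt was.

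Hmgcs1, the cytosolic enzyme that makes HMG-CoA for cholesterol synthesis, was lower in mutant knockouts than in wild-type knockouts by a log2 difference of -0.62 ± 0.10 (limma adjusted p = 0.00428). It had 10.37, 10.46 and 10.23 in mutant knockouts against 10.85, 11.14 and 10.92 in wild-type knockouts. The calls of Emb and Hmgcs1 in mutant against wild-type knockouts, and the other calls of Emb, held in all alternatives run. In wild-type knockouts against wild-type controls Paip1 rose by 0.25 ± 0.07 (adjusted p = 0.0330), Hmgcs1 rose by 0.36 ± 0.10 (adjusted p = 0.0260) and Parp8, a poly(ADP-ribose) polymerase family member, fell by 0.26 ± 0.06 (adjusted p = 0.0143). All 3 calls were lost without wild-type control array 3 or wild-type knockout array 3, among others. Over the alternatives the adjusted p reached 0.123 for Paip1, 0.0947 for Hmgcs1 and 0.0582 for Parp8.

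The transhydrogenase is not the only source of mitochondrial NADPH. Isocitrate dehydrogenase 2, the malic enzymes Me2 and Me3, glutamate dehydrogenase and folate enzymes such as Mthfd2, Mthfd2l and Aldh1l2 also form it, and the kinase Nadk2 supplies mitochondrial NADP. All 10 genes listed with these sources were tested. Among them are Shmt2 and Mthfd1l of the mitochondrial folate pathway, which do not themselves form NADPH. In mutant knockouts against mutant controls 2 rose and 1 fell, and in wild-type knockouts against wild-type controls 2 rose and 3 fell. In mutant against wild-type controls 1 was higher and 1 lower, and in mutant against wild-type knockouts 3 were higher and 0 lower. Over all genes the shares called in these comparisons were 13.4%, 18.8%, 6.49% and 5.96%. The median difference of the list was -0.0067, -0.0042, 0.058 and 0.056 in these comparisons, beside 0.026, -0.0093, -0.023 and 0.014 over all genes tested.

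Me3, a mitochondrial malic enzyme, was highest in mutant knockouts, with log2 levels of 9.43, 9.34 and 9.18 against 8.87, 8.91 and 8.90 in mutant controls. It had 8.68, 8.84 and 8.86 in wild-type knockouts against 8.46, 8.60 and 8.64 in wild-type controls. The mutant knockouts did not overlap any other group. Me3 rose by 0.42 ± 0.07 in mutant knockouts against mutant controls (limma adjusted p = 0.00347) and was higher by 0.52 ± 0.07 than in wild-type knockouts (adjusted p = 0.00154). Where Nnt was lowest, in mutant controls, Me3 was higher by 0.33 ± 0.07 than in wild-type controls (adjusted p = 0.0209). That last call was lost without wild-type control array 1, mutant control array 1 or mutant control array 2, with an adjusted p of up to 0.0826.

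Aldh1l2, the mitochondrial 10-formyltetrahydrofolate dehydrogenase, was lower in both knockouts. Its log2 levels were 9.51, 9.57 and 9.41 in mutant knockouts against 9.98, 9.88 and 9.81 in mutant controls. They were 9.15, 9.23 and 9.16 in wild-type knockouts against 9.71, 9.74 and 9.59 in wild-type controls. It fell by 0.39 ± 0.06 in the mutant (limma adjusted p = 0.0020) and by 0.50 ± 0.06 in the wild-type (adjusted p = 0.000170), without overlap in either. Of the other sources, Mthfd2l fell by 0.32 in wild-type knockouts (adjusted p = 0.00214) and Me2 rose by 0.25 (adjusted p = 0.00582). Idh2 averaged 12.15 ± 0.02 in mutant knockouts and 11.95 ± 0.07 in mutant controls (log2, SD, n = 3 each), and its adjusted p of 0.0450 was above 0.05 in 14 of 22 alternatives.

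Mthfd2, the folate enzyme of mitochondria in dividing cells, was the only member of this list with a wider spread within groups than Nnt, an SD of 0.437. The arrays had log2 levels of 9.37, 9.15 and 10.08 in mutant knockouts, 9.37, 9.24 and 10.07 in mutant controls, 10.40, 9.92 and 9.96 in wild-type knockouts and 10.36, 9.99 and 9.36 in wild-type controls. Array 3 was high in both mutant groups, where Nnt was low, and array 1 was high in wild-type knockouts, as for Nnt.

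Among the genes listed with mitochondrial users of NADPH and peroxide removal, 12 of 14 were tested, and Prdx5 and Fdxr had no probe set of their own. The list also holds the cysteine desulfurase Nfs1. In mutant knockouts 1 rose and 0 fell, and in wild-type knockouts 2 rose and 0 fell. Between mutant and wild-type controls (6.49% of all genes) and between mutant and wild-type knockouts (5.96%) 0 passed the test. Among all genes 7.66% rose in mutant knockouts and 9.17% in wild-type knockouts. Gpx1, glutathione peroxidase 1, rose by 0.27 in mutant knockouts (limma adjusted p = 0.0216) and by 0.26 in wild-type knockouts (adjusted p = 0.0181). Prdx3, the mitochondrial peroxiredoxin, rose by 0.26 in wild-type knockouts (adjusted p = 0.0330). Glutathione reductase (Gsr), mitochondrial thioredoxin reductase (Txnrd2) and superoxide dismutase 2 (Sod2) did not pass the test in any of the 4 comparisons.

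Of 9 genes listed with cytosolic sources of NADPH, 8 were tested and G6pdx had no probe set of its own. The list also holds Pgls and Nadk, which do not themselves form NADPH, and H6pd of the endoplasmic reticulum. The cytosolic malic enzyme Me1 fell by 0.22 in mutant knockouts (limma adjusted p = 0.0170) and by 0.28 in wild-type knockouts (adjusted p = 0.00236), and it was lower in mutant than in wild-type controls by a log2 difference of -0.23 (adjusted p = 0.0209). Aldh1l1, the cytosolic counterpart of Aldh1l2, rose by 0.40 in mutant knockouts (adjusted p = 0.0125) and by 0.32 in wild-type knockouts (adjusted p = 0.0227). Over the 3 NADPH lists 6 of 30 genes passed the test in mutant knockouts (13.4% of all genes), 10 in wild-type knockouts (18.8%), 3 between mutant and wild-type controls (6.49%) and 4 between mutant and wild-type knockouts (5.96%). Calls that held in all alternatives were 2, 4, 0 and 2 of these, namely Me3 and Aldh1l2 in the mutant and between the knockouts, and Me2, Mthfd2l, Aldh1l2 and Me1 in the wild-type. None of the 30 had a knockout effect that passed the test for a difference between Fbn1 genotypes, a test that only 1.48% of all genes passed.

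**Figure D4:**
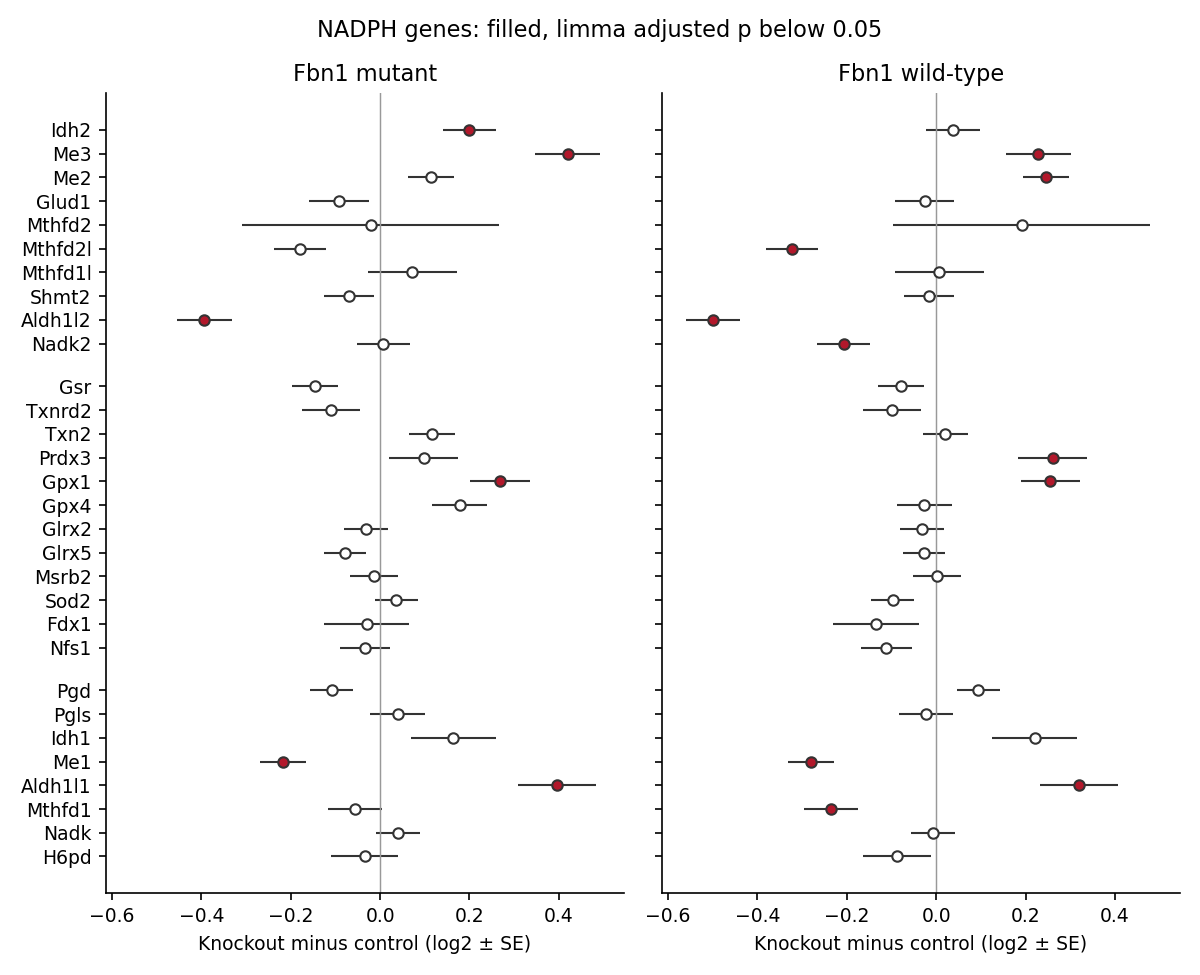
Log2 difference of knockout minus control (horizontal axis, point with SE bar) for the 30 tested genes of the 3 NADPH lists (rows: mitochondrial sources, mitochondrial users and peroxide removal, cytosolic sources, top to bottom), in Fbn1 mutant (left) and wild-type (right) aortas. Filled points passed the limma test at an adjusted p of 0.05, 6 in the mutant and 10 in the wild-type, and most genes lie near 0.

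The respiratory chain builds the proton gradient that the transhydrogenase uses. Of 24 genes tested, 0 passed the test in mutant knockouts (13.4% of all genes), 2 rose in wild-type knockouts (9.17% of all genes), 2 were higher in mutant than in wild-type controls (3.17%) and 0 passed between the knockouts (5.96%). In mutant knockouts 16 of the 24 did not overlap mutant controls, beside 35.9% of all genes, and their median difference was 0.093, beside 0.026 over all genes. Their mean level per array lay between 11.61 and 11.63 in mutant knockouts, 11.49 and 11.57 in mutant controls, 11.54 and 11.59 in wild-type knockouts and 11.45 and 11.53 in wild-type controls. The mutant knockouts lay above the other groups on this measure, where for Nnt the wild-type controls were highest.

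Other genes reported to differ between mouse strains were examined beside Nnt. The lists were drawn from background knowledge, and a listed variant need not change the level of its transcript. Of 13 genes listed for C57BL/6 substrains 7 were tested. In mutant knockouts 0 of these rose and 1 fell, in wild-type knockouts 1 rose and 2 fell, in mutant against wild-type controls 0 were higher and 1 lower, and in mutant against wild-type knockouts 0 were higher and 2 lower. Of 16 genes listed for differences of C57BL/6 from another laboratory strain, 9 were tested. In wild-type knockouts 2 rose and 0 fell, in mutant against wild-type controls 2 were higher and 0 lower, and 0 passed in the other comparisons. Among all genes 7.66% rose and 5.77% fell in mutant knockouts and 9.17% rose and 9.66% fell in wild-type knockouts. Between controls 3.17% were higher and 3.33% lower in the mutant, and between knockouts 2.8% were higher and 3.16% lower. Over both lists 4 of 5 calls in wild-type knockouts held in all alternatives, those of Cyfip2, Adcy5, Dock2 and Casp4. In mutant knockouts 0 of 1 held. Between controls 3 of 3 held (Cyfip2, Casp4 and Trim12a), and between knockouts 1 of 2 (Dock2).

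Cyfip2, an actin regulator with a known coding variant in C57BL/6N, differed between groups. On the log2 scale it had 8.72, 8.80 and 8.78 in mutant knockouts, 8.99, 9.02 and 9.12 in mutant controls, 9.05, 9.19 and 8.88 in wild-type knockouts and 9.52, 9.43 and 9.45 in wild-type controls. Like Nnt it was lower in mutant than in wild-type controls, with a log2 difference of -0.42 (limma adjusted p = 0.00547), and lower in wild-type knockouts than in wild-type controls (-0.42 ± 0.07, adjusted p = 0.00135). Unlike Nnt it was also lower in mutant knockouts than in mutant controls, at -0.28 (adjusted p = 0.0232), a call lost without mutant control array 2 or 3, mutant knockout array 1 or the 2 arrays of highest Ucp1, with an adjusted p of up to 0.146. Array 1 of the knockout groups, high for Nnt, was the lowest of 3 in mutant knockouts and the middle of 3 in wild-type knockouts. Adcy5, of the substrain list, averaged 12.90 ± 0.03 in wild-type knockouts and 13.33 ± 0.05 in wild-type controls (log2, SD, n = 3 each). This fall of 0.42 had a limma adjusted p of at most 0.00543 over 22 alternatives. In the mutant its knockout difference was -0.10. The difference of its knockout effects was 0.33 (limma adjusted p = 0.112), positive as for Nnt.

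Casp4, an inflammatory caspase for which some laboratory strains carry an inactivating variant, was lowest in the wild-type controls. It had log2 levels of 8.54, 8.39 and 8.42 in mutant knockouts, 8.51, 8.55 and 8.47 in mutant controls, 8.65, 8.55 and 8.65 in wild-type knockouts and 7.92, 8.19 and 8.16 in wild-type controls. It rose by 0.53 ± 0.07 in wild-type knockouts (limma adjusted p = 0.000309), was higher by 0.42 in mutant than in wild-type controls (adjusted p = 0.00570), and had a knockout effect that differed between genotypes by -0.59 ± 0.10 (adjusted p = 0.0142). Trim12a, a TRIM family gene, was likewise higher in mutant than in wild-type controls by 0.36 (adjusted p = 0.00773), at 9.76 ± 0.04 against 9.40 ± 0.04 (log2, SD, n = 3 each).

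Dock2, a leukocyte guanine nucleotide exchange factor, had log2 levels of 8.22, 8.31 and 8.43 in mutant knockouts, 8.17, 8.22 and 8.36 in mutant controls, 8.87, 8.64 and 8.74 in wild-type knockouts and 8.03, 7.88 and 8.08 in wild-type controls. It rose by 0.76 ± 0.08 in wild-type knockouts (limma adjusted p = 5.61e-05), and its knockout effect differed between genotypes by -0.69 ± 0.11 (adjusted p = 0.00974). The 5 macrophage markers had mean levels of 10.39 to 10.45 in mutant knockouts, 9.89 to 10.22 in mutant controls, 10.74 to 10.93 in wild-type knockouts and 9.68 to 9.94 in wild-type controls, and the difference of their knockout effects had a median of -0.63. The part of leukocytes in the Casp4 and Dock2 differences was not tested.

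Mmrn1 and Wdfy1 also varied within groups, but not in the same set of groups as Nnt. Wdfy1 had an SD of 0.024 in mutant knockouts, beside 0.503 for Nnt. Mmrn1 had an SD of 0.035 in wild-type controls and 0.669 in mutant controls, beside 0.272 and 0.062 for Nnt. In wild-type knockouts all of these genes varied, with an SD of 0.639 for Mmrn1, 0.312 for Wdfy1 and 0.430 for Nnt. Mmrn1, a multimerin whose locus is deleted in a colony derived from C57BL/6J, had a within-group SD of 0.534. Levels were 8.49, 8.20 and 9.24 in mutant knockouts, 7.55, 8.72 and 8.71 in mutant controls, 9.06, 9.76 and 8.49 in wild-type knockouts and 8.55, 8.62 and 8.60 in wild-type controls. Wdfy1, an endosomal FYVE-domain protein, had an SD of 0.255. Levels were 10.58, 10.57 and 10.61 in mutant knockouts, 10.01, 10.31 and 10.14 in mutant controls, 10.12, 10.28 and 10.72 in wild-type knockouts and 9.78, 10.51 and 10.26 in wild-type controls. In wild-type controls array 2 was the highest for Wdfy1, Mmrn1 and Nnt, whereas in both knockout groups array 1, the highest for Nnt, was highest for neither. Neither gene passed the test in any of the 4 comparisons.

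**Figure D5:**
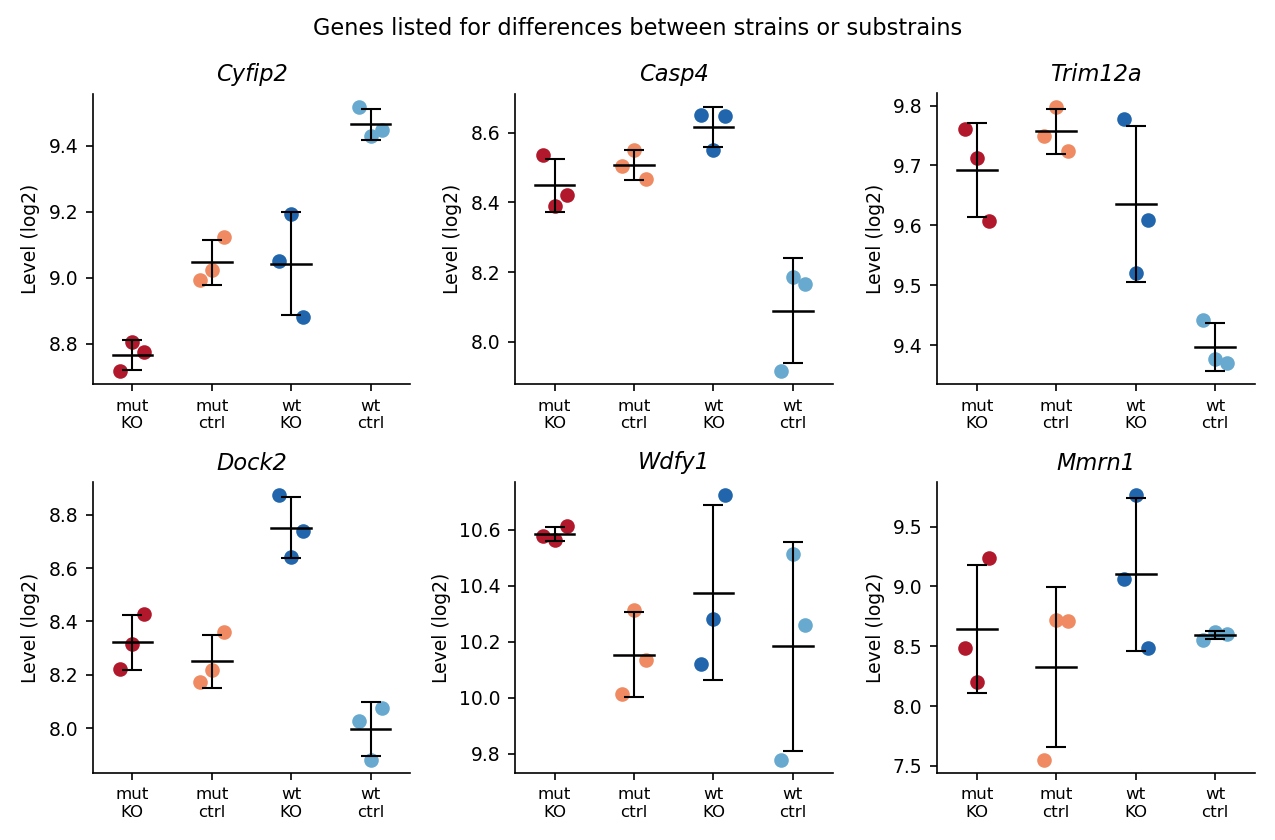
Log2 level per array (points), group mean (line) and SD (bar) of Cyfip2, Casp4, Trim12a, Dock2, Wdfy1 and Mmrn1 in mutant knockouts, mutant controls, wild-type knockouts and wild-type controls; the vertical axes differ between panels. Casp4 and Trim12a are lowest and Cyfip2 is highest in wild-type controls, while Wdfy1 (SD 0.255) and Mmrn1 (SD 0.534) vary within groups.

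Markers of other cell types were set beside the Nnt levels. Ucp1, the uncoupling protein of brown fat, was highest in mutant control array 3, at 8.58 where Nnt was 10.30, and in mutant knockout array 1, at 8.21 where Nnt was 11.32. On the other 10 arrays Ucp1 lay between 6.75 and 7.30, and Nnt took both its high and its low levels among them. Ucp1 and Elovl3 were below the level filter. The mean of the brown fat markers was 8.02 to 8.59 in mutant knockouts, 7.65 to 8.57 in mutant controls, 7.92 to 8.26 in wild-type knockouts and 7.71 to 7.89 in wild-type controls, where Nnt was highest. Of the 4 brown fat markers tested, 1, Cidea, rose in mutant knockouts (7.66% of all genes) and in wild-type knockouts (9.17%). Cox7a1, Adipoq and Plin1 did not pass the test in either.

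Of the 7 cardiac muscle markers 2 rose in mutant knockouts and 2 in wild-type knockouts, and their mean level was 9.91 to 10.43 in mutant knockouts, 9.28 to 9.74 in mutant controls, 9.74 to 9.86 in wild-type knockouts and 9.32 to 9.36 in wild-type controls. Of the 5 macrophage markers 3 rose in mutant knockouts and 5 in wild-type knockouts, and of the 5 endothelium markers 3 rose in each. Of the 4 fibroblast markers 0 rose in mutant knockouts and 2 in wild-type knockouts. Among all genes 7.66% rose in mutant knockouts and 9.17% in wild-type knockouts. In mutant against wild-type knockouts 3 of 5 macrophage markers and 1 of 4 fibroblast markers were lower (3.16% of all genes), and in mutant against wild-type controls 1 of each was higher (3.17%). The knockout effect differed between genotypes in 2 macrophage markers, Adgre1 and Csf1r, and 2 fibroblast markers, Lum and Col1a1, each with a lower effect in the mutant (1.08% of all genes). The part of these cell types in the differences of Nnt and of the NADPH and strain genes was not tested.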

How the data were processed

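Total RNA of ascending aorta was biotin-labelled and hybridised to 12 one-colour Affymetrix whole-transcript arrays. The deposited values are RMA intensity on a linear scale, made by the authors in Partek 6.4 per the submitters' processing notes, and log2 was taken from them here. The genome build is not given in the sources used here, and 0 columns belonged to other samples.

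Of 35556 probe sets 23410 were annotated and 21789 had 1 symbol. The probe set of highest mean stood for each of 19938 genes. The 14944 genes with a mean at or above the 25th percentile (log2 7.31, intensity 159) were tested with limma 3.58.1 in R 4.3.3, with one coefficient per group, 8 residual and 4.54 prior degrees of freedom, two-sided tests and Benjamini-Hochberg adjustment at 0.05. The fit was tested on simulated data. Values carry the SD over 3 arrays, and p-values measure only the spread between these arrays, which may be technical. The number of arrays limits the precision, and scanner files and detection calls were not used here.

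Named genes are Nnt, the 10 tested genes with the highest and the 5 with the lowest correlation of deviations with Nnt (without predicted genes, receptors of smell, Mir and Snor symbols), 5 tested neighbours on each side, members of the NADPH and strain lists, and markers. The gene, the 12 lists (120 entries) and the rules were chosen with earlier results of these data known. Neighbour order came from the GRCm38.p6 gene table. Alternatives covered scaling, the level filter, the variance model, array weights, the replicate block, fits of only the groups compared, and leaving out each array. The deviations of same-numbered arrays had correlations of -0.217 to 0.24, with means of 0.00636, -0.0419 and 0.0248 for numbers 1, 2 and 3. Of the 12 arrays, 6 correlated best with an array of their own number. How many would do so without pairing was not worked out. The numbers were not taken as pairs in the main fit, and the replicate block was run as an alternative.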

Additional observations from a re-analysis of the deposited data

Results flagged for a closer look

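The knockout effect differed between Fbn1 genotypes, by the limma interaction test, in 1 of 10 neighbours, 0 of 30 NADPH genes and 2 of 16 strain genes. It also differed in 2 of 5 macrophage and 2 of 4 fibroblast markers, and in no marker of the other cell types. Of all genes tested 1.48% passed. For Emb the effect in the mutant minus that in the wild-type was -0.919 on the log2 scale, for Dock2 it was -0.685 and for Casp4 it was -0.588. For Emb the effect was -0.80 in the mutant and 0.12 in the wild-type, for Dock2 it was 0.07 in the mutant and 0.76 in the wild-type, and for Casp4 it was -0.06 in the mutant and 0.53 in the wild-type.

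Among the markers the difference was -0.857 for Adgre1 and -0.661 for Csf1r, both of macrophages, and -0.634 for Lum and -0.569 for Col1a1, both of fibroblasts. The 5 macrophage markers had a median difference of -0.63, between -0.86 and -0.57, beside 0.03 over all genes, in the same direction as Dock2 and Casp4, and their part in those differences was not tested. The same difference was 1.21 for Nnt (limma adjusted p = 0.104). Nnt was chosen with these values known, so its value is a description and speaks neither for a difference nor for its absence.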

How the results depend on the processing

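Because Nnt was taken up with these values known, its adjusted p-values describe the arrays and support nothing. In the limma fit they were 0.0315 for wild-type knockouts against wild-type controls, 0.265 for mutant knockouts against mutant controls, 0.0210 between mutant and wild-type controls and 0.805 between mutant and wild-type knockouts. An exact permutation test over 3 against 3 arrays cannot go below 0.1. Over the alternatives the adjusted p ran between 0.00960 and 0.122, 0.0828 and 0.820, 0.00640 and 0.0796, and 0.443 and 0.997 for these comparisons. With robust variances the first difference was -0.81 with an adjusted p of 0.0664. Without the 2 arrays of highest Ucp1, an alternative chosen after seeing the data, mutant minus wild-type knockouts became -0.15, as it did without mutant knockout replicate 1. Leaving out each array in turn gave Nnt -1.06 to -0.65 in the wild-type, 0.11 to 0.56 in the mutant, -1.17 to -0.92 between controls, -0.15 to 0.39 between knockouts and 0.92 to 1.46 for the difference of effects. The first fell short of the threshold without wild-type control replicate 1 or 2 or wild-type knockout replicate 2 or 3, and the third without wild-type control replicate 2 or mutant control replicate 1 or 2.

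The within-group SD of Nnt was 0.274 to 0.383 with single arrays left out, at percentiles 97.6 to 100. Its median absolute deviation from group medians was 0.0580, at percentile 89.4. That measure is on another scale than the SD, so only the percentiles compare. Genes called were 1836 to 2992 in the wild-type, 896 to 2146 in the mutant, 349 to 1073 between controls, 382 to 1019 between knockouts and 107 to 202 for the difference, with single arrays left out. Array weights gave 3687 in the mutant, 1568 between controls, 1687 between knockouts and 469 for the difference. Fits of only the groups compared gave 1261 in the mutant and 480 between controls, and without the 2 arrays of highest Ucp1 there were 1082 in the mutant and 409 between knockouts. The main counts were 2814, 2008, 970, 890 and 221.

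NADPH genes called were 6 to 10 in the wild-type, 3 to 8 in the mutant, 0 to 4 between controls and 2 to 4 between knockouts with single arrays left out, and 5 between controls with the filter at the median. Strain genes called were 4 to 6, 0 to 3, 3 to 3 and 1 to 2 in the same order. In the mutant they were 2 with arrays centred on the median, the filter at the median, the variance trend or only the groups compared. With array weights they were 4 of 16, where 3687 of 14944 genes were called, beside 1 and 2008 in the main fit. Without the 2 arrays of highest Ucp1 they were 0, where 1082 of all genes were called. With the filter at the median they were 3 in the wild-type and 1 between knockouts. Between knockouts the strain genes called were also 4 with array weights, where 1687 of all genes were called, beside 2 and 890 in the main fit. They were 1 with the replicate block, with only the groups compared or without the 2 arrays of highest Ucp1. With the replicate block, Nnt moved no call. Of the 10 genes most like Nnt, 1 was shared when levels were used, 3 by Spearman, 6 after quantile normalization and 0 without the 2 farthest arrays. Only 1 probe set names Nnt, so using every Nnt probe set gave no other value. The cause of these changes was not tested.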
